A study of Mus musculus with 95 samples.

Results

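The 8 genes for subunits of canonical Polycomb repressive complex 1 were followed across PCGF knockout lines of E14, an embryonic stem cell line from mouse: Cbx2, Cbx6, Cbx7, Cbx8, Phc1, Phc2, Phc3 and Scmh1. These 8 of the 23377 genes in the count table were taken by name. Levels came from RNA-seq of 7 groups of 2 libraries each: wild-type, Pcgf1-/-, Pcgf2/4-/-, Pcgf3/5-/-, Pcgf6-/-, Pcgf1/2/4-/- and Pcgf3/5/6-/- cells, where the 4 stands for Bmi1, the gene of PCGF4. All were E14 cells grown on gelatin in serum with leukaemia inhibitory factor and inhibitors of GSK3 and MEK, per the labels' protocols. The knockouts were clones made with Cas9, the double and triple lines by editing knockout clones again, so an effect of the clone and of the deleted gene cannot be told apart. Chromatin came from 80 ChIP-seq peak lists, 1 per sample, for RING1B, SUZ12, PCGF1, PCGF2, PCGF3, PCGF6, USF1, WDR5 and the marks H3K27me3, H2AK119Ub1, H3K4me3 and H3K36me3. Besides the lines above these covered an Ezh1/2-/- line, a Ring1a-/- line with a floxed Ring1b and inducible Cre, its Ring1a/b-/- form, and cells with short hairpins labelled shMGA, shMGAdHLH, shE2F6, shE2F6-MGAdHLH, shUsf1, shUsf2 or, as the control, shCtr; the labels do not explain MGAdHLH.

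Canonical PRC1 is built on RING1A or RING1B with PCGF2 or PCGF4, a CBX protein and a PHC protein, whereas variant PRC1 carries RYBP or YAF2 in place of the CBX protein. The CBX subunits read the H3K27me3 mark of Polycomb repressive complex 2 through a chromodomain, and CBX7 is known as the main CBX protein of embryonic stem cells. PHC proteins and SCMH1 carry a SAM domain through which PHC proteins form chains that compact chromatin. Genes of this family are themselves known Polycomb targets in embryonic stem cells.

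Library totals ran from 2147968 to 7848161 counts, and 15464 genes, all 8 members among them, passed the filter on low counts. Of the targeted genes, Pcgf6 had 0 counts in both Pcgf6-/- libraries against 36.2 and 34.3 CPM (counts scaled to the library total, TMM factors included) in wild-type, and Pcgf1 was at 4.80 and 3.20 CPM in Pcgf1-/- cells and 0.533 and 0.902 CPM in Pcgf1/2/4-/- cells against 66.0 and 61.0. Transcripts stayed in other lines, such as Pcgf6 at 42.0 and 37.2 CPM in the libraries labelled Pcgf3/5/6-/-, Pcgf2 at 57.1 and 56.8 CPM in Pcgf1/2/4-/-, so for those genes the RNA does not check the label. The 2 wild-type libraries differed by less than sampling noise over 14899 genes (chi-square per degree of freedom 0.958), so their values are given without an SD and results were repeated with their counts summed to 1 library. The Pcgf2/4-/- libraries differed most (19.5), with replicate 1 at 2764111 counts. Markers of embryonic stem cells summed to between 1601 and 3175 CPM over 7 genes in every library, sums that can hide opposite changes. In Pcgf3/5/6-/- cells they summed to 1903 and 1897 CPM against 1883 and 1889 in wild-type, with 2 of the 7 raised and 2 lowered. There Pou5f1 was at 478 and 492 CPM (wild-type 266 and 272) and Tfcp2l1 at 387 and 362 (725 and 720). Primitive endoderm markers (6 genes) summed to 1.12 to 1.85 CPM in wild-type, with 5 of the 6 at 0 in both libraries, against 41.9 to 47.3 CPM in Pcgf6-/-, 45.5 to 55.7 in Pcgf3/5/6-/- and 13.9 to 16.2 in Pcgf1/2/4-/- cells. Most of these sums was Dab2, at 42.4 and 38.4 CPM in Pcgf6-/-, 40.7 and 50.7 in Pcgf3/5/6-/- and 9.60 and 11.3 in Pcgf1/2/4-/- cells, while Gata4, Gata6, Sox17, Sox7 and Foxa2 were each between 0 and 2.13 CPM there. Trophoblast markers (5 genes) summed to 103 to 107 CPM in wild-type, 45.9 in Pcgf6-/- and 227 to 231 in Pcgf3/5/6-/- cells, sums of genes that went opposite ways. From wild-type to Pcgf3/5/6-/- cells Tfap2c went from 19.1 and 17.0 to 166 and 157 CPM and Cdx2 from 71.0 and 77.7 to 18.6 and 20.3, and in Pcgf6-/- cells Tfap2c was at 33.6 and 32.1 and Cdx2 at 4.60 and 6.12. Primed or early differentiating markers (4 genes) summed to 190 and 191 CPM in wild-type and 392 and 391 in Pcgf1/2/4-/- cells. They summed to 238 and 214.5 CPM in Pcgf3/5/6-/- cells and 65.2 to 143 in the other lines. In Pcgf1/2/4-/- cells Dnmt3b was at 363 and 357 CPM (wild-type 149 and 156) and T at 1.60 and 2.26 (36.2 and 29.9). Neural markers (3 genes) summed to 6.27 and 4.07 CPM in wild-type, 25.9 and 26.7 in Pcgf3/5/6-/- and 1.67 and 1.15 in Pcgf2/4-/- cells. From wild-type to Pcgf3/5/6-/- cells Nes alone went clearly up, from 4.56 and 2.81 to 25.6 and 25.7 CPM. Sox1 went from 0.998 and 0.843 CPM to 0 in both libraries, and Pax6 from 0.713 and 0.422 to 0.316 and 1.01. In bulk RNA a change in the share of a cell type and a change of RNA per cell cannot be told apart, and the part of these markers in the results below was not tested. Nothing in the labels says that the 2 libraries of a line came from separate cultures, so p-values measure the spread between libraries, which may be technical.

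The 8 genes lie at 7 places in the genome (NCBIM37, GENCODE M1). Cbx2 (ENSMUSG00000025577.7, chr11:118884276-118892584, forward strand) and Cbx8 (ENSMUSG00000025578.8, chr11:118897619-118902283, reverse strand) are neighbours that point towards each other, with 5.0 kb between their ends. Cbx6 (chr15:79654326-79665118) and Cbx7 (chr15:79746237-79801549) lie on the reverse strand of chromosome 15, and Phc2 (chr4:128331982-128430125) and Scmh1 (chr4:120077886-120202804) on the forward strand of chromosome 4. Phc1 (chr6:122267749-122290579) and Phc3 (chr3:30798217-30868337) are on the reverse strand. Cbx6 overlaps Npcd on the same strand, so its counts are uncertain; Npcd itself had at most 2 counts in a library. Reads shared between the paralogs could also be split by the counting, which was not tested.

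The starts of Cbx8 and Scmh1 are shown because they gave the largest rises in expression and differ in their chromatin. RefSeq promoters (GRCm38.p6, 250 bases before to 50 after a start) matched 7 of the 8 genes, Cbx2 being the other. In capitals are CACGTG, the E-box that USF proteins bind, and GGCGGGA on either strand, a core of E2F sites; the sequences were found unchanged at chr11:118902178-118902477 (reverse strand) and chr4:120077703-120078002 (forward strand) in NCBIM37.
Cbx8: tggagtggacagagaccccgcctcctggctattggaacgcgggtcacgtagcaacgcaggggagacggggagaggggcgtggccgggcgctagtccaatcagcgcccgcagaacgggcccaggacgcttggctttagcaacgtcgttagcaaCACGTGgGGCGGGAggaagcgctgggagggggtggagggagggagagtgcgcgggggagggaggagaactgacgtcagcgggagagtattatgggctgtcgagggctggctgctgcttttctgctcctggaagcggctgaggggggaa
Scmh1: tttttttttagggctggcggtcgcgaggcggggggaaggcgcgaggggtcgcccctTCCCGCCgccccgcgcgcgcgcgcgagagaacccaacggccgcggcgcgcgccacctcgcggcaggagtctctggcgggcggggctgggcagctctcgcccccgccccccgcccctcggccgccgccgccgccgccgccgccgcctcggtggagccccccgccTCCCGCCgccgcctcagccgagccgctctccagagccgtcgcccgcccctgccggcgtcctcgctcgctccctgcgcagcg
The Cbx8 promoter held 1 CACGTG, starting 98 bases before the RefSeq start, and 1 GGCGGGA. The Scmh1 promoter held no CACGTG and 2 matches to GGCGGGA, at 81.3% GC with 54 CpG dinucleotides. Over all 32851 promoters of the table the median was 52.7% GC and 7 CpG, 7.15% held CACGTG and 11.3% held GGCGGGA on either strand.

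In wild-type cells the CBX reader with the highest level per length was Cbx7, at 26.8 CPM per kb of exon, ahead of Cbx6 at 9.71, Cbx2 at 8.19 and Cbx8 at 3.18. Among the SAM-domain genes Phc1 was at 37.4 CPM per kb, and Phc3, Phc2 and Scmh1 were at 2.06, 1.94 and 1.54. Over the 7 groups the highest mean level was 3.55 times the lowest for Phc2, 3.44 for Cbx8, 3.10 for Scmh1, 2.49 for Cbx2 and 2.26 for Cbx7. Cbx6, Phc1 and Phc3 varied least, at 1.90, 1.86 and 1.71 times. The members with low levels per length in wild-type, apart from Phc3, were thus among those with the widest range. The lowest mean rested on 68 and 27 counts for Phc2, 24 and 19 for Scmh1 and 75 and 90 for Cbx8. Sampling of low counts can widen such a range, and its part was not tested.

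**Figure D1:**
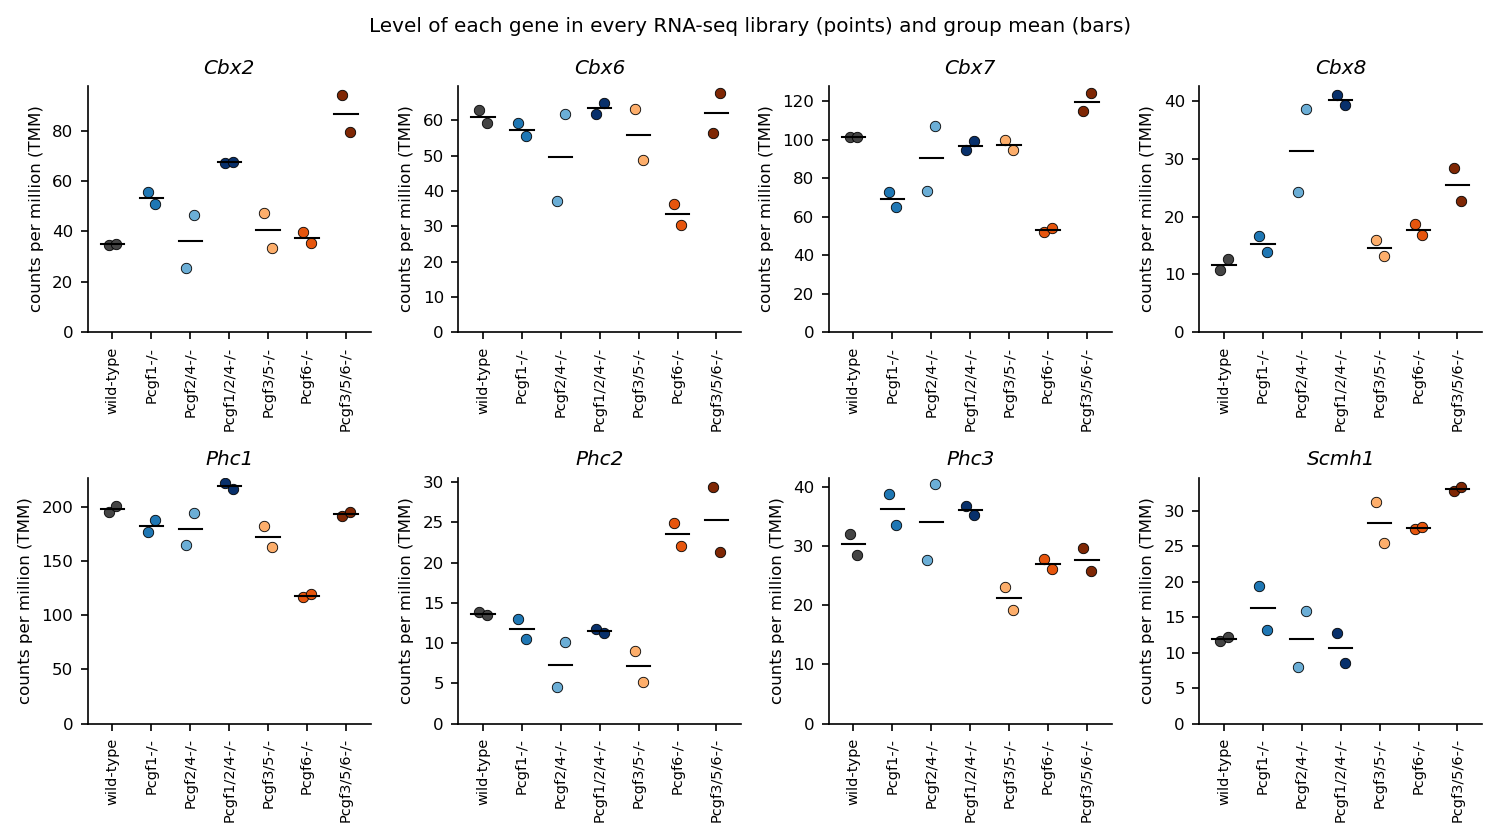
Level of each of the 8 genes (vertical axis, CPM) in both libraries (points) of the 7 groups (horizontal axis), with bars at group means. Cbx8 is lowest in wild-type and highest in Pcgf1/2/4-/- cells, Cbx7 and Phc1 are lowest in Pcgf6-/- cells, and Scmh1 is high in the 3 groups that lack Pcgf3/5 or Pcgf6.

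Of 48 tests of a member in a knockout against wild-type (edgeR quasi-likelihood, Benjamini-Hochberg adjusted over 15464 genes, threshold 0.05), 12 found a rise and 5 a fall. Of these 17 calls, 11 held in all 11 other settings tried. In Pcgf1-/- cells 1 of 8 members rose and 1 fell, where 32.6% of all genes were called, 14% rising and 18.6% falling. Pcgf2/4-/- cells had 1 rise and no fall (21.9% of all genes called, 8.23% and 13.7% by direction), and Pcgf3/5-/- cells 1 of each (21.7%, 11.1% and 10.6%). Pcgf6-/- cells had 3 rises and 3 falls (46.5%, 27.9% and 18.7%). Pcgf1/2/4-/- cells had 2 rises and no fall (36.9%, 14.3% and 22.7%), and Pcgf3/5/6-/- cells 4 rises and no fall (53.2%, 27.9% and 25.3%). In Pcgf1/2/4-/- cells the share of rises among all called genes was 38.7% here and 51.2% with DESeq2, and the median log2 change of all genes was -0.11 against -0.0018 with loess offsets. The median log2 change over the 8 members ran from -0.09 in Pcgf3/5-/- to 0.57 in Pcgf3/5/6-/- cells, beside medians over all genes of 0 and 0.05.

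**Figure D2:**
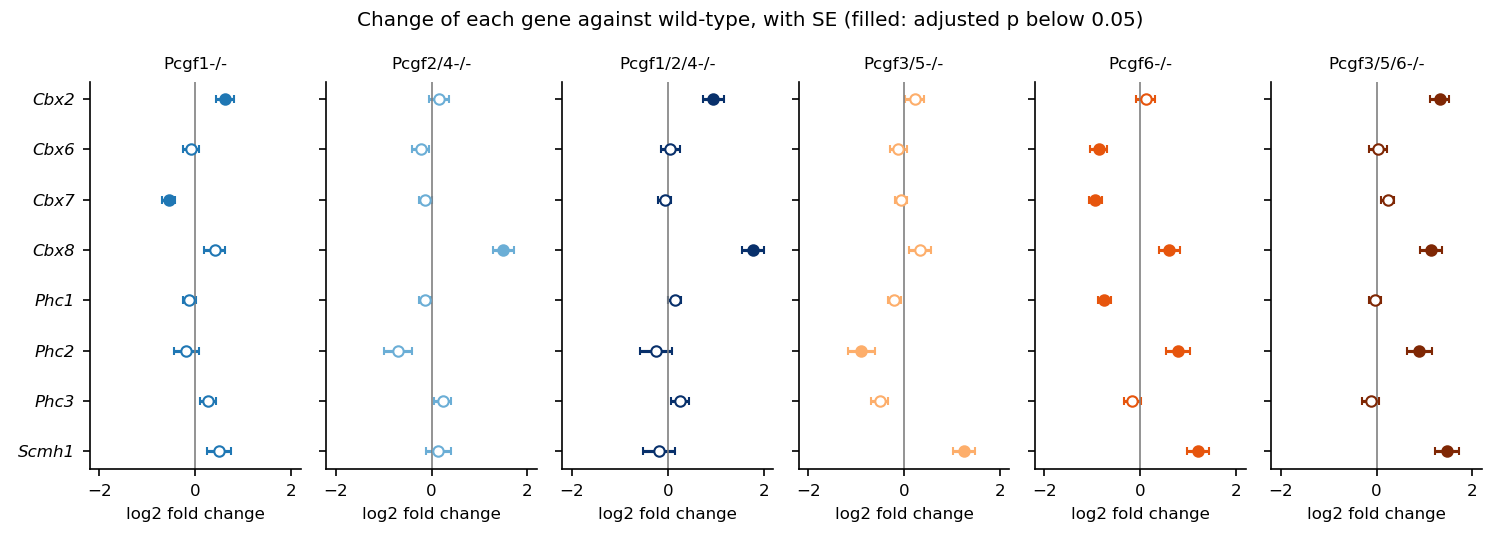
Log2 fold change against wild-type (horizontal axis) of each gene (rows) in each knockout (panels), with SE bars; filled points have an adjusted p below 0.05. Cbx8 lies to the right in every panel and is filled in 4, and Cbx6, Cbx7 and Phc1 all lie to the left and are filled in the Pcgf6-/- panel.

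Cbx8, a chromodomain subunit known to rise when stem cells differentiate, was lowest in wild-type cells. Its levels were 10.7 and 12.6 CPM in wild-type, 16.6 and 13.9 in Pcgf1-/-, 15.9 and 13.2 in Pcgf3/5-/- and 18.7 and 16.8 in Pcgf6-/- cells. They were 28.4 and 22.6 CPM in Pcgf3/5/6-/-, 24.3 and 38.6 in Pcgf2/4-/- and 41.1 and 39.2 in Pcgf1/2/4-/- cells. All 12 knockout libraries were above both wild-type libraries, a pair that every line was compared with and that held 75 and 90 Cbx8 counts. These are thus not independent comparisons. In the order of means Pcgf2/4-/- overlapped Pcgf3/5/6-/- and Pcgf1-/- overlapped Pcgf3/5-/-. The log2 change was 1.78 ± 0.23 (SE, n = 2 libraries a group) in Pcgf1/2/4-/- (edgeR adjusted p = 5.06e-05), 1.50 ± 0.21 in Pcgf2/4-/- (0.000225) and 1.13 ± 0.23 in Pcgf3/5/6-/- cells (0.000774). It was 0.61 ± 0.22 in Pcgf6-/- cells (edgeR adjusted p = 0.0319), a call lost without any 1 of the 4 libraries (0.49 to 0.73) and with the wild-type libraries summed (adjusted p = 0.0853). Changes in Pcgf1-/- (0.41) and Pcgf3/5-/- cells (0.33) did not pass the test.

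Cbx2, its neighbour and another chromodomain subunit, was at 34.8 and 34.99 CPM in wild-type cells. It was at 94.4 and 79.4 CPM in Pcgf3/5/6-/-, 67.2 and 67.7 in Pcgf1/2/4-/- and 55.8 and 50.9 in Pcgf1-/- cells, 3 groups that overlapped neither each other nor any other group. Pcgf3/5-/- (47.3 and 33.5), Pcgf6-/- (39.7 and 35.5) and Pcgf2/4-/- libraries (25.5 and 46.6) overlapped each other, and Pcgf2/4-/- and Pcgf3/5-/- spanned the wild-type values. The log2 change was 1.32 ± 0.20 in Pcgf3/5/6-/- (edgeR adjusted p = 5.98e-05) and 0.95 ± 0.21 in Pcgf1/2/4-/- cells (0.00352). In Pcgf1-/- cells it was 0.62 ± 0.19 (edgeR adjusted p = 0.0243). That last call was lost without Pcgf1-/- replicate 1 (0.55, adjusted p = 0.160) and without either wild-type library (0.61, adjusted p = 0.113, and 0.62, adjusted p = 0.109), and with these summed (adjusted p = 0.0870).

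Cbx7, the CBX reader with the highest level per length, fell in both single knockouts. It was at 101.6 and 101.2 CPM in wild-type, 51.9 and 53.9 in Pcgf6-/- and 72.8 and 65.1 in Pcgf1-/- cells, with no overlap. It was at 114.9 and 124.3 CPM in Pcgf3/5/6-/-, 99.9 and 94.4 in Pcgf3/5-/-, 94.4 and 99.2 in Pcgf1/2/4-/- and 73.2 and 107.4 in Pcgf2/4-/- cells, the last 3 of which overlapped. The log2 change was -0.94 ± 0.14 in Pcgf6-/- (edgeR adjusted p = 4.17e-05) and -0.55 ± 0.13 in Pcgf1-/- cells (0.00581). Without Pcgf1-/- replicate 2 the latter was -0.37 (adjusted p = 0.124). In Pcgf2/4-/- cells the change was -0.13, and without replicate 2 of that line it was -0.47 (adjusted p = 0.00860).

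Cbx6, a further CBX reader, fell in Pcgf6-/- cells as well. It was at 62.9 and 59.3 CPM in wild-type and at 36.3 and 30.5 in Pcgf6-/- cells, a log2 change of -0.87 ± 0.18 (edgeR adjusted p = 0.000967). It was at 59.2 and 55.5 CPM in Pcgf1-/-, 37.2 and 61.9 in Pcgf2/4-/-, 63.3 and 48.7 in Pcgf3/5-/-, 61.9 and 65.0 in Pcgf1/2/4-/- and 56.5 and 67.9 in Pcgf3/5/6-/- cells. In the order of means only wild-type and Pcgf1-/-, and Pcgf2/4-/- and Pcgf6-/-, did not overlap as neighbours, and these 5 knockouts had log2 changes from -0.22 to 0.06 that did not pass the test. The lowest of these libraries was Pcgf2/4-/- replicate 1, and without replicate 2 of that line the change was -0.71 (adjusted p = 0.00870).

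Phc1, the PHC gene with the highest level, was at 196 and 201 CPM in wild-type and 116.5 and 119.2 CPM in Pcgf6-/- cells. It was at 221.9 and 216.1 CPM in Pcgf1/2/4-/-, 191.3 and 195.6 in Pcgf3/5/6-/-, 176.6 and 188.2 in Pcgf1-/-, 164.9 and 194.7 in Pcgf2/4-/- and 182.6 and 162.6 in Pcgf3/5-/- cells. Every library of the other lines was thus above both Pcgf6-/- libraries. The log2 change in Pcgf6-/- cells was -0.75 ± 0.13 (edgeR adjusted p = 0.000226), and in the other lines changes ran from -0.20 to 0.14 and did not pass the test. Cbx6, Cbx7 and Phc1 were thus the 3 members lowered in Pcgf6-/- cells.

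Phc2, another PHC subunit, went in opposite directions in different lines. It was at 13.8 and 13.5 CPM in wild-type, 25.0 and 22.0 in Pcgf6-/- and 29.4 and 21.3 in Pcgf3/5/6-/- cells, but at 9.08 and 5.17 in Pcgf3/5-/- and 4.60 and 10.1 in Pcgf2/4-/- cells. Pcgf1-/- (13.0 and 10.5) and Pcgf1/2/4-/- libraries (11.7 and 11.3) were just below wild-type. The groups above wild-type overlapped each other, as did Pcgf3/5-/- and Pcgf2/4-/- cells. The log2 change was 0.89 ± 0.27 in Pcgf3/5/6-/- (edgeR adjusted p = 0.0105), 0.79 ± 0.24 in Pcgf6-/- (0.0154) and -0.89 ± 0.28 in Pcgf3/5-/- cells (0.0353). The fall in Pcgf3/5-/- cells was lost without replicate 2 (-0.59, adjusted p = 0.246), without either wild-type library (-0.88 and -0.91) and with these summed (adjusted p = 0.0952). The rise in Pcgf6-/- cells was lost without replicate 1 (0.69, adjusted p = 0.113), without either wild-type library (0.80 and 0.77) and with these summed (adjusted p = 0.0618). That in Pcgf3/5/6-/- cells was lost without its replicate 1 (0.64, adjusted p = 0.154) or wild-type replicate 2 (0.87, adjusted p = 0.0569). In Pcgf2/4-/- cells the change was -0.70, and it was -1.56 (adjusted p = 0.0122) without replicate 2.

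Phc3, the third PHC gene, passed the test in no line. It was at 32.1 and 28.4 CPM in wild-type and lowest in Pcgf3/5-/- cells at 23.1 and 19.2, a log2 change of -0.51 with an edgeR adjusted p of 0.0517. With RLE size factors in the same fit the adjusted p was 0.0494. With loess offsets Phc3 was called in 4 lines, with log2 changes of -0.46 in Pcgf3/5-/-, 0.31 in Pcgf1-/-, 0.32 in Pcgf2/4-/- and 0.59 in Pcgf1/2/4-/- cells. It was at 38.8 and 33.6 CPM in Pcgf1-/-, 36.8 and 35.2 in Pcgf1/2/4-/-, 27.6 and 40.5 in Pcgf2/4-/-, 29.7 and 25.7 in Pcgf3/5/6-/- and 27.7 and 26.2 in Pcgf6-/- cells. Neighbouring groups overlapped from the highest, Pcgf1-/-, down to Pcgf6-/- cells.

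Scmh1, whose protein carries a SAM domain and MBT repeats, rose in each line without Pcgf3/5 or Pcgf6. It was at 11.7 and 12.2 CPM in wild-type, 31.3 and 25.5 in Pcgf3/5-/-, 27.5 and 27.7 in Pcgf6-/- and 32.8 and 33.4 in Pcgf3/5/6-/- cells. These 6 libraries were above those of the other lines. The other knockouts were at 19.4 and 13.2 CPM in Pcgf1-/-, 7.95 and 15.8 in Pcgf2/4-/- and 12.8 and 8.57 in Pcgf1/2/4-/- cells. The log2 change was 1.25 ± 0.23 in Pcgf3/5-/- (edgeR adjusted p = 0.00159), 1.205 ± 0.23 in Pcgf6-/- (0.000536) and 1.47 ± 0.25 in Pcgf3/5/6-/- cells (0.000155). In Pcgf1-/- cells the change was 0.49 and did not pass the test, but was 0.81 (adjusted p = 0.0354) without replicate 2 of that line.

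The triple knockouts were also set against the lines that lack part of their genes. Against Pcgf1-/- cells, 2 of 8 members were higher in Pcgf1/2/4-/- cells (41.8% of all genes differed, 19.5% upwards and 22.3% downwards): Cbx8 by 1.37 ± 0.23 on the log2 scale (edgeR adjusted p = 0.000276) and Cbx7 by 0.48 ± 0.14 (0.0151). The Cbx7 call was lost without Pcgf1-/- replicate 2 (0.32) or either Pcgf1/2/4-/- library (0.48 and 0.40), when 1 or 2 members were called. Against Pcgf2/4-/- cells Cbx2 alone was higher (30.1% of all genes differed, 11.6% upwards and 18.5% downwards), by 0.80 ± 0.22 (edgeR adjusted p = 0.0125), with no member called without Pcgf1/2/4-/- replicate 1 (0.82) or 2 (0.81) and 4 without Pcgf2/4-/- replicate 2.

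Pcgf3/5/6-/- cells were above Pcgf3/5-/- cells in 3 members (51.9% of all genes differed, 27.3% upwards and 24.6% downwards): Phc2 by 1.79 ± 0.29 (edgeR adjusted p = 0.000114), Cbx2 by 1.09 ± 0.20 (0.000301) and Cbx8 by 0.80 ± 0.23 (0.00814). The Cbx8 difference was not called without Pcgf3/5-/- replicate 2 (0.69) or Pcgf3/5/6-/- replicate 1 (0.63). Against Pcgf6-/- cells 4 members were higher (46.1% of all genes differed, 18.9% upwards and 27.2% downwards): Cbx2 by 1.21 ± 0.20 (edgeR adjusted p = 0.000182), Cbx7 by 1.18 ± 0.14 (1.22e-05), Cbx6 by 0.89 ± 0.19 (0.00162) and Phc1 by 0.71 ± 0.13 (0.000485). Scmh1 was not called in either comparison, and the low levels of Cbx6, Cbx7 and Phc1 in Pcgf6-/- cells were not seen in the libraries labelled Pcgf3/5/6-/-. By a test of the difference itself, chosen after seeing the data, losing Pcgf3/5 changed 5 of 8 members differently in Pcgf6-/- and in wild-type cells (35.2% of all genes, 14.8% upwards and 20.4% downwards), and losing Pcgf2/4 changed 1 of 8 differently in Pcgf1-/- and in wild-type cells (31.3%, 14.2% and 17.0%). Pcgf6 transcripts were present in the Pcgf3/5/6-/- libraries, as given above.

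Around the starts of the members, peaks of RING1B, the catalytic PRC1 subunit, were called in wild-type cells at Cbx2 and Cbx8, 2 of 8 where 15.8% of all genes had one within 2.5 kb of an annotated start. SUZ12, a core subunit of PRC2, had peaks at Cbx2, Cbx8 and Phc2 (17.2% of all genes), H3K27me3 at Cbx8 (13.4%), H2AK119Ub1, the mark that PRC1 lays down, at Cbx8 (3.96%), and PCGF2 at Cbx8 (13.4%). No such peak was called at Cbx6, Cbx7, Phc1 or Phc3 in wild-type cells. H3K4me3, a mark of active starts, had peaks at all 8 members in the 5 lines measured, as did 67.1% to 70.1% of all genes. H3K36me3, which follows transcription, had peaks at Cbx6, Cbx7, Phc1 and Phc3 in all 5 lists (27.8% to 33.4% of genes). Each list is 1 sample and its length varied, so whether a peak was called compares lists, not replicated levels.

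**Figure D3:**
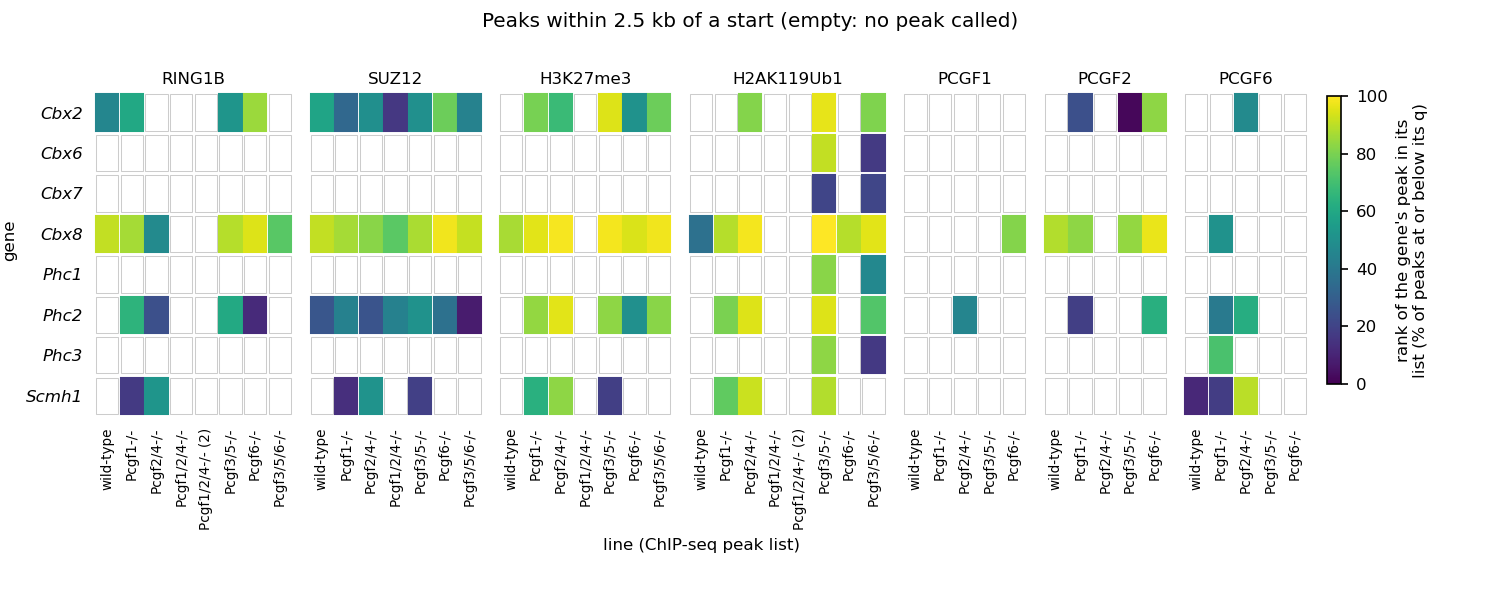
Peaks within 2.5 kb of an annotated start of each gene (rows) in the wild-type and Pcgf knockout lists (columns, grouped by antibody); colour gives the share of peaks in the same list with a q value as weak or weaker, and empty boxes have no peak. SUZ12 peaks are present at Cbx2, Cbx8 and Phc2 in all 7 lines, while RING1B peaks are absent from all 8 genes in both Pcgf1/2/4-/- lists.

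At Cbx2 the RING1B peak (wild-type fold enrichment 7.86 in the authors' list, summit 621 bp before the start) was also called in Pcgf1-/- (9.87), Pcgf3/5-/- (7.75) and Pcgf6-/- cells (16.6). It was absent in Pcgf2/4-/-, Pcgf3/5/6-/- and both Pcgf1/2/4-/- lists, where the nearest peaks were 13400, 10716, 22741 and 22699 bp away. The shares of genes with a RING1B peak were 15.9% in Pcgf1-/-, 16.0% in Pcgf3/5-/-, 13.2% in Pcgf6-/-, 17.7% in Pcgf2/4-/-, 8.37% in Pcgf3/5/6-/- and 7.05% and 6.27% in Pcgf1/2/4-/- lists. SUZ12 stayed called at Cbx2 in all 7 lines, where 13.6% to 21.9% of genes had a SUZ12 peak. Among the lines without a RING1B peak at Cbx2, its RNA rose in the triple knockouts but not in Pcgf2/4-/- cells, and it also rose in Pcgf1-/- cells, where the peak was called.

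Cbx8 carried the widest signal. In wild-type cells RING1B peaks covered 66.7% of the 5 kb centred on its start, against 20.6% at Cbx2, and SUZ12 covered 72.2%. RING1B covered 94.8% in Pcgf6-/-, 86.0% in Pcgf3/5-/-, 50.0% in Pcgf1-/- and 41.0% in Pcgf3/5/6-/- cells. It covered 0% in Pcgf2/4-/- and in both Pcgf1/2/4-/- lists, the lines with the highest mean Cbx8 RNA. A link between RING1B peaks and Cbx8 RNA was not tested. In Pcgf2/4-/- cells the 1 RING1B peak counted lay 950 bp from a start inside the gene, and in Pcgf1/2/4-/- cells the nearest were 5497 and 5455 bp away. SUZ12 covered 48.8% in Pcgf2/4-/- and 32.2% in Pcgf1/2/4-/- cells. H3K27me3 was called at Cbx8 in every line except Pcgf1/2/4-/-, where 5.81% of genes had a peak.

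**Figure D4:**
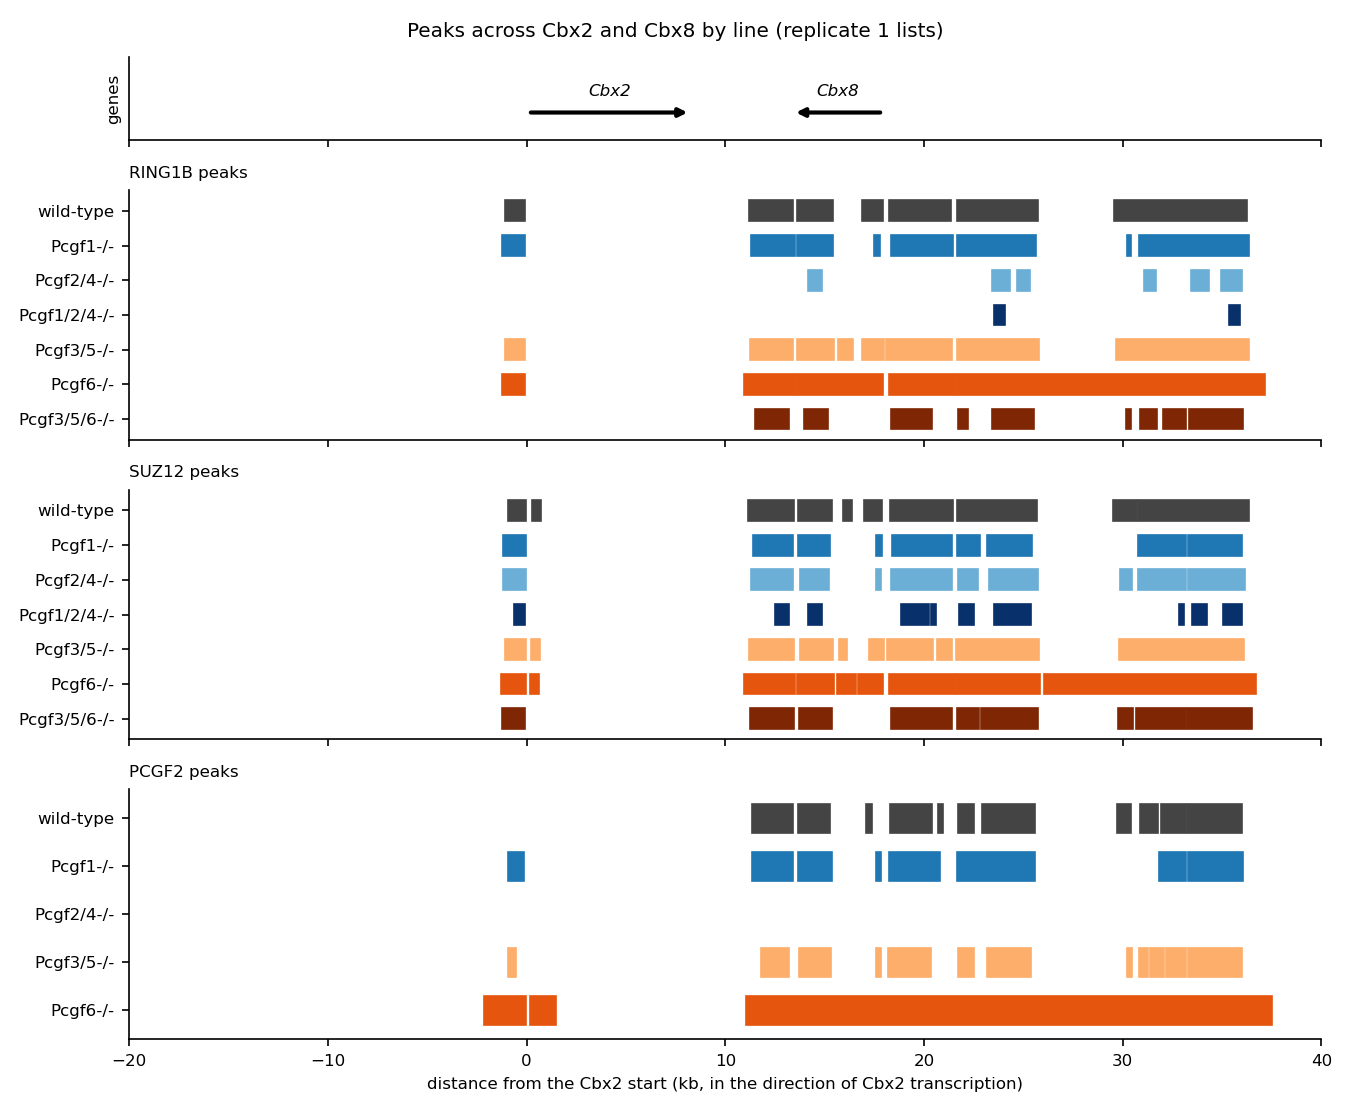
Peaks of RING1B, SUZ12 and PCGF2 (coloured bars) by line across Cbx2 and Cbx8 (arrows in the direction of transcription), by distance in kb from the Cbx2 start. RING1B bars are absent within 2.5 kb of the Cbx8 start in the Pcgf2/4-/- and Pcgf1/2/4-/- rows, and 1 PCGF2 bar of 26478 bp runs over Cbx8 in Pcgf6-/- cells.

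PCGF2 peaks lay over Cbx8 in wild-type (fold 16.8), Pcgf1-/- (13.5), Pcgf3/5-/- (15.6) and Pcgf6-/- cells (27.7), the last as a single peak 26478 bp wide. At Cbx2, PCGF2 had no peak in wild-type cells and had one in Pcgf1-/- (6.07), Pcgf3/5-/- (5.94) and Pcgf6-/- cells (19.1). Of all genes 13.1%, 10.2% and 20.4% had a PCGF2 peak in those 3 lists. No member had a PCGF2 peak in Pcgf2/4-/- (3.58% of genes), Ezh1/2-/- (0.824%) or Ring1a/b-/- cells (1.63%). In the Ring1a-/- line before loss of Ring1b, Cbx2 and Cbx8 had a PCGF2 peak, as did 10.0% of genes.

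At Phc2, SUZ12 was called in all 7 lines and RING1B in 4 knockouts but not in wild-type, where the nearest RING1B peak was 76997 bp away. The fold enrichment of RING1B was 12.0 in Pcgf1-/-, 9.64 in Pcgf3/5-/-, 5.77 in Pcgf2/4-/- and 4.61 in Pcgf6-/- cells. No RING1B peak was called in Pcgf3/5/6-/- or Pcgf1/2/4-/- cells. Phc2 RNA was raised in Pcgf6-/- cells, with a RING1B peak, and in Pcgf3/5/6-/- cells, without one.

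Scmh1 had RING1B peaks in Pcgf1-/- (fold 5.87) and Pcgf2/4-/- cells (7.07) and none in wild-type, Pcgf3/5-/-, Pcgf6-/- or the triple knockouts. SUZ12 was called there in Pcgf1-/- (5.71), Pcgf2/4-/- (9.05) and Pcgf3/5-/- cells (5.82; 15.8%, 21.9% and 17.6% of genes). Scmh1 was the only member with a PCGF6 peak in wild-type cells, at fold 6.93 with its summit 337 bp before the start (5.83% of genes). PCGF6 was also called there in Pcgf1-/- (7.12), Pcgf2/4-/- (17.8) and shCtr cells (10.9; 18.2%, 33.4% and 21.0% of genes). It was not called at Scmh1 in Pcgf6-/- (a list of 1042 peaks), Pcgf3/5-/- (5.40%) or Ring1a/b-/- cells (4.82%), nor in the Ring1a-/- floxed Ring1b line before loss of Ring1b (6.25%), nor in shE2F6 (1.88%), shMGA (0.729%), shMGAdHLH (2.26%) or shE2F6-MGAdHLH cells (0.824%). The 2 of these lines with RNA, Pcgf6-/- and Pcgf3/5-/-, were among those with raised Scmh1. In Pcgf6-/- cells the target of the antibody was deleted, so the lack of a PCGF6 peak there is not informative. The Pcgf3/5-/- list was short, at 1571 peaks. Pcgf3/5/6-/- cells, where Scmh1 was raised as well, had no PCGF6 list, and a link between PCGF6 peaks and Scmh1 RNA was not tested. The shCtr list held 7451 peaks and the shE2F6 and shMGA lists 557 and 468.

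H2AK119Ub1 lists ran from 1070 to 128786 peaks. The longest, Pcgf3/5-/-, had all 8 members (66.9% of genes), the Pcgf3/5/6-/- list 7 (32.1%), the Pcgf2/4-/- list 4 (42.1%) and the Pcgf1-/- list 3 (10.3%). The Pcgf6-/- list, like wild-type, had Cbx8 alone (7.24%), and both Pcgf1/2/4-/- lists had none (1.72% and 0.852%). H3K27me3 was called at Cbx2 and Phc2 as well as Cbx8 in the Pcgf1-/-, Pcgf2/4-/-, Pcgf3/5-/-, Pcgf6-/- and Pcgf3/5/6-/- lists (20.2%, 36.8%, 21.6%, 14.2% and 20.3% of genes), and at Scmh1 in the first 3. The wild-type list held 8063 peaks against 13041 to 112110 in these 5.

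USF1, a basic helix-loop-helix factor that binds E-boxes, had peaks in wild-type cells at 6 of 8 members, where 17.0% of all genes had one. Each of the 6 held CACGTG within 100 bp of the summit, as did 74.7% of the 9659 USF1 peaks. The peaks at Phc2 (fold 73.4) and Phc3 (62.2) were at or above 99.6% and 99.1% of the list by q value, and those at Cbx6 (13.7), Cbx7 (7.45), Cbx8 (6.59) and Phc1 (5.54) were lower. The E-boxes are shown with 17 bases on either side, in the direction of each gene's transcription, with CACGTG in capitals, at chr4:128331872-128331911 (Phc2), chr3:30868397-30868436 (Phc3), chr15:79664767-79664806 (Cbx6), chr15:79802846-79802885 (Cbx7), chr11:118902303-118902342 (Cbx8) and chr6:122290630-122290669 (Phc1) of NCBIM37.
Phc2: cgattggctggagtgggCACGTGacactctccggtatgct
Phc3: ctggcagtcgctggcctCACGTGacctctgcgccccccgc
Cbx6: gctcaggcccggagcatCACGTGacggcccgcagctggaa
Cbx7: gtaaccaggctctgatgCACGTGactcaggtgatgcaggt
Cbx8: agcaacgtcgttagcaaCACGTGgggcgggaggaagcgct
Phc1: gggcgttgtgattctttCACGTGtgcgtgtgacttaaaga
The E-box lay 3 bp from the USF1 summit at Phc2, 4 bp at Phc3 and 96 bp at Cbx6. The USF1 summits were 88 bp before the start at Phc2 and 83 bp at Phc3, and 1300 bp before it at Cbx7.

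PCGF3 and PCGF6 peaks shared that position at Phc2 and Phc3. In Pcgf6-/- cells PCGF3, whose list held 612 peaks (2.31% of genes), had summits 93 bp before the Phc2 start and 95 bp before the Phc3 start, and no other member had a PCGF3 peak in any list. PCGF6 summits lay 97 and 80 bp before the Phc3 start in Pcgf1-/- and shMGAdHLH cells (18.2% and 2.26% of genes). At Phc2 they lay 90 to 157 bp before the start in Pcgf1-/-, Ring1a-/- floxed Ring1b, Ring1a/b-/- and shMGA cells. In wild-type cells neither PCGF3 (0.890% of genes) nor PCGF6 had a peak at Phc2 or Phc3. WDR5 had none at any member (9.48% of genes). PCGF1 had none in wild-type (2.60%), Pcgf1-/- (0.00952%) or Pcgf3/5-/- cells (0.824%). It had a peak at Cbx8 in Pcgf6-/- (fold 6.52, 10.2% of genes) and Ezh1/2-/- cells (4.94, 11.5%), at Phc2 in Pcgf2/4-/- cells (7.51, 5.83%) and at Cbx2 in Ring1a/b-/- cells (5.25, 4.33%). The longest PCGF1 list, of the Ring1a-/- floxed Ring1b line (12735 peaks, 32.7% of genes), had Cbx2, Cbx8, Phc1, Phc2 and Phc3.

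**Figure D5:**
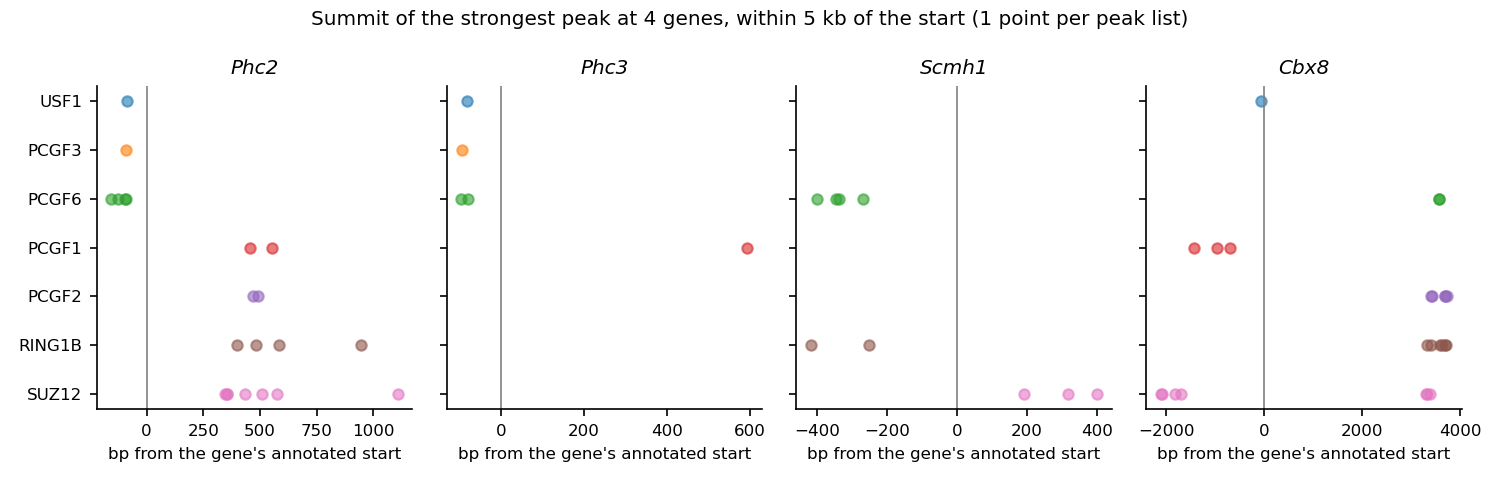
Position of the summit of the strongest peak (horizontal axis, bp from the gene's annotated start in the direction of transcription) for 7 antibodies (rows) at 4 genes (panels), 1 point per peak list, within 5 kb. At Phc2 and Phc3 the USF1, PCGF3 and PCGF6 points lie together before the start, and at Cbx8 RING1B and PCGF2 summits lie over 3 kb after it; 2 PCGF6 peaks at another Phc2 start, 56.8 kb downstream, are outside the plot.

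The other Polycomb genes were counted in 4 lists: 7 further canonical PRC1 genes, 25 variant PRC1 genes, 11 PRC2 genes and 3 HP1 genes. The targeted genes were among them, Pcgf2 and Bmi1 in the canonical list and Pcgf1, Pcgf3, Pcgf5 and Pcgf6 in the variant list. Falls counted in a knockout can therefore include those of its own deleted genes. Of the 7 canonical genes, 2 rose and 1 fell in Pcgf1-/-, none moved in Pcgf2/4-/-, 2 rose and 1 fell in Pcgf3/5-/-, 3 rose and 3 fell in Pcgf6-/-, 1 rose in Pcgf1/2/4-/-, and 3 rose and 1 fell in Pcgf3/5/6-/- cells. The shares of all genes called in these lines were 32.6%, 21.9%, 21.7%, 46.5%, 36.9% and 53.2%. With single libraries left out, the canonical genes called numbered 1 in place of 3 in Pcgf3/5-/-, 3 to 4 in place of 6 in Pcgf6-/-, 0 to 1 in Pcgf1/2/4-/- and 2 to 3 in place of 4 in Pcgf3/5/6-/- cells. Scml2, a relative of Scmh1, went from 2.00 and 1.55 CPM to 78.1 and 90.9 in Pcgf6-/- and 23.4 and 23.6 in Pcgf3/5/6-/- cells. Scml4 rose in Pcgf1-/- (1.50), Pcgf3/5-/- (1.42), Pcgf6-/- (0.96) and Pcgf3/5/6-/- cells (1.88).

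In the variant PRC1 list 4 of 25 rose and 5 fell in Pcgf1-/-, 1 and 2 in Pcgf2/4-/-, 0 and 3 in Pcgf3/5-/-, 4 and 5 in Pcgf6-/-, 5 and 8 in Pcgf1/2/4-/- and 5 and 4 in Pcgf3/5/6-/- cells. With single libraries left out the number called ran from 5 to 10 in Pcgf1-/-, 2 to 8 in Pcgf2/4-/-, 5 to 6 in Pcgf6-/- and 3 to 7 in Pcgf1/2/4-/- cells, and was 2 in Pcgf3/5-/- and 7 in Pcgf3/5/6-/- cells. Mga, a DNA-binding partner of PCGF6, fell in Pcgf6-/- (log2 change -0.97, edgeR adjusted p = 1.08e-05), Pcgf1/2/4-/- (-1.13, 1.50e-05) and Pcgf3/5/6-/- cells (-1.30, 8.45e-07). E2f6 fell in Pcgf1/2/4-/- (-1.11) and rose in Pcgf6-/- cells (0.64), and Fbrs fell in Pcgf1/2/4-/- cells (-1.08). Bcor rose in Pcgf1-/- (0.51), Pcgf1/2/4-/- (0.69) and Pcgf3/5/6-/- cells (1.23), and Bcorl1 in Pcgf6-/- (0.94) and Pcgf3/5/6-/- cells (1.02). Fbrsl1 rose in Pcgf1-/- (1.18) and Pcgf2/4-/- cells (2.13). Of the 11 PRC2 genes 3, 2, 4, 1, 2 and 5 were called in Pcgf1-/-, Pcgf2/4-/-, Pcgf3/5-/-, Pcgf6-/-, Pcgf1/2/4-/- and Pcgf3/5/6-/- cells, and with single libraries left out 1 to 4 in Pcgf1-/-, 0 to 5 in Pcgf2/4-/- and 1 to 2 in Pcgf1/2/4-/- cells. Phf19, a PRC2 accessory gene at 0.428 and 0.843 CPM in wild-type, rose to 14.8 and 8.44 in Pcgf3/5/6-/- (4.15) and 3.34 and 2.87 in Pcgf3/5-/- cells (2.26), and had no counts in Pcgf2/4-/- cells. Of the 3 HP1 genes, 1 fell in Pcgf1-/- and 1 in Pcgf6-/- cells, and none passed the test elsewhere; with single libraries left out the number ran from 0 to 1 in Pcgf1-/- and in Pcgf2/4-/- cells.

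Over the 14 libraries, the 2 genes whose log2 CPM correlated most with each member, among 11615 genes with a mean log2 CPM of at least 2, were Myh9 and Fbxw8 for Cbx2 (Pearson r = 0.96 and 0.95), Nudt17 and Wasf2 for Cbx8 (0.92 and 0.89) and Preb and Hspg2 for Cbx7 (0.94 and 0.92). They were Asap2 and Armc5 for Cbx6 (0.93 and 0.92), Fblim1 and Sp1 for Phc1 (0.95 and 0.93), Il1rap and Bicd2 for Phc2 (0.96 and 0.96), Tbc1d8 and Tnk1 for Phc3 (0.91 and 0.91) and Adora2b and Sec1 for Scmh1 (0.95 and 0.93). The libraries form 7 groups, so these values describe the pattern over groups and carry no test.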

How the data were processed

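RNA-seq of 14 libraries and 80 ChIP-seq peak lists were used. Reads were processed with TopHat2 2.1.1, Bowtie 1.2.2, Picard 1.62, HTSeq 0.7.2, DESeq2 3.7 and MACS2 2.1.1 on mm9, per the submitters' processing notes. The deposited count table holds whole raw counts per gene symbol, and every per-sample column was mapped. The authors deposited log2 fold changes with p-values for each knockout, which gave the same call as here for all 48 values of the members. For Pcgf6-/- cells the headers of that table and of the count table give different clone names, so these may not be the same clone. The deposited peak lists, 1 per sample, give a fold enrichment (a linear ratio) and −log10 p and q values per peak from MACS2. Whether counting used strand is not given in the sources used here.

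Counts were fitted with edgeR 4.0.16 (R 4.3.3, quasi-likelihood, TMM factors, filterByExpr, all 14 libraries, group as the only term), and p-values were adjusted over all 15464 tested genes by Benjamini-Hochberg. The script was tested on simulated data. Levels are CPM, counts scaled to the library total with TMM factors. Library totals limit precision most for genes near 10 CPM. A peak was assigned to a gene when it lay within 2.5 kb of an annotated transcript start (GENCODE M1, NCBIM37). For 21001 symbols a start was found. Alternatives were DESeq2 1.42.0, RLE factors, loess offsets, no filter, only the groups compared, a replicate block, each library left out, and other peak windows and q values. Chosen after seeing the data were the summed wild-type libraries, peaks with −log10 q of at least 20, and the tests of a difference between differences. Every member is named. Other Polycomb genes are named where the adjusted p against wild-type was below 0.05 and the log2 change at least 1 in size in some line, and the 2 genes most correlated with each member are named. Results for 1 other gene that met this rule are not reported here. The members and lists were chosen with earlier results of these data known. The input library was not used.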

Additional observations from a re-analysis of the deposited data

Results flagged for a closer look

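The change on losing Pcgf3/5 differed between Pcgf6-/- and wild-type cells for 5 of 8 members, by a test of the difference itself in the same edgeR quasi-likelihood fit (Benjamini-Hochberg adjusted; 35.2% of all genes passed). The log2 difference was 1.24 ± 0.19 (SE) for Cbx7 (adjusted p = 0.000191), 1.01 ± 0.26 for Cbx6 (0.00745) and 0.91 ± 0.18 for Phc1 (0.00148), and these 3 passed in all 15 other settings. For Cbx2 it was 0.98 ± 0.28 (adjusted p = 0.0135), with adjusted p from 0.0533 to 0.0712 without Pcgf3/5-/- replicate 2, Pcgf6-/- replicate 2 or Pcgf3/5/6-/- replicate 1. For Scmh1 it was -0.99 ± 0.33 (adjusted p = 0.0285): the gene rose in Pcgf3/5-/- and in Pcgf6-/- cells and little further in Pcgf3/5/6-/- cells. The Scmh1 test was not passed with any 1 of 7 of the 8 libraries left out (adjusted p from 0.0712 to 0.107; Pcgf3/5-/- replicate 2 was the exception), nor with the wild-type libraries summed (adjusted p = 0.0679). The libraries labelled Pcgf3/5/6-/- held Pcgf6 transcripts, whose part in these differences was not tested.

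The change on losing Pcgf2/4 differed between Pcgf1-/- and wild-type cells for Cbx7 alone among the members, by 0.62 ± 0.20 on the log2 scale (edgeR adjusted p = 0.0269; 31.3% of all genes passed). It was not passed in 9 of 15 other settings, with adjusted p of 0.0545 with no filter, 0.0677 with only the groups compared, 0.0609 with the wild-type libraries summed, 0.0673 and 0.0662 without wild-type replicate 1 or 2, 0.153 without Pcgf1-/- replicate 2, 0.0792 without Pcgf2/4-/- replicate 1 and 0.108 and 0.169 without Pcgf1/2/4-/- replicate 1 or 2.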

How the results depend on the processing

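Counts of called members moved by over 1.5 times with loess offsets (5 in Pcgf1-/- and 3 in Pcgf2/4-/- cells against wild-type, 3 in Pcgf1/2/4-/- against Pcgf2/4-/- and 6 in Pcgf3/5/6-/- against Pcgf3/5-/- cells), with the wild-type libraries summed (1 in Pcgf1-/- and 1 in Pcgf3/5-/- cells), with only the groups compared (4 in Pcgf1/2/4-/- against Pcgf1-/-) and with DESeq2 (2 in Pcgf1/2/4-/- against Pcgf2/4-/-). With single libraries left out the counts ran from 1 to 2 in Pcgf1-/-, 1 to 4 in Pcgf2/4-/- and 1 to 2 in Pcgf3/5-/- cells, and from 1 to 2 and 0 to 4 in Pcgf1/2/4-/- against Pcgf1-/- and Pcgf2/4-/- cells. At −log10 q of at least 20, pairs of member and list with a peak numbered 10 of 16 for RING1B, 13 of 24 for SUZ12, 8 of 19 for H3K27me3, 14 of 24 for H2AK119Ub1, 2 of 9 for PCGF1, 7 of 11 for PCGF2, 0 of 2 for PCGF3 and 2 of 15 for PCGF6. With the gene start only, H3K36me3 had 11 of 22. Counts of all called genes moved too (main fit in brackets). With loess offsets they numbered 6247 (5047) in Pcgf1-/- and 4565 (3384) in Pcgf2/4-/- cells. They were 5526 (4652) in Pcgf1/2/4-/- against Pcgf2/4-/- and 8810 (8019) in Pcgf3/5/6-/- against Pcgf3/5-/-. They were fewer with the wild-type libraries summed. With only the groups compared they were 6516 (6463) in Pcgf1/2/4-/- against Pcgf1-/-. With DESeq2 they fell to 4134 (4652) in Pcgf1/2/4-/- against Pcgf2/4-/-. The cause of these changes was not tested.

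Changes that turned direction were not called to begin with. Cbx6 was at 0.0020 in Pcgf1-/- with only the groups compared and -0.011 in Pcgf3/5/6-/- with no filter. Cbx7 in Pcgf1/2/4-/- was at 0.021 with RLE factors and 0.021 with DESeq2, and Phc1 in Pcgf3/5/6-/- at 0.038 and 0.038. With loess offsets Phc1 was at 0.034 in Pcgf3/5/6-/- and -0.088 in Pcgf1/2/4-/-, Phc2 at 0.085 and Scmh1 at 0.16 in Pcgf1/2/4-/-, and Phc3 at 0.10 in Pcgf3/5/6-/- cells. With single libraries left out, log2 changes in Pcgf2/4-/- cells ran from -0.45 to 0.43 for Cbx2, -0.71 to 0.037 for Cbx6, -0.47 to 0.10 for Cbx7, -0.13 to 0.44 for Phc3 and -0.59 to 0.42 for Scmh1. In Pcgf3/5-/- cells they ran from -0.057 to 0.44 for Cbx2 and -0.33 to 0.052 for Cbx6, in Pcgf1-/- cells from -0.14 to 0.065 for Cbx6 and -0.38 to 0.038 for Phc2, in Pcgf1/2/4-/- cells from -0.46 to 0.11 for Scmh1, and in Pcgf3/5/6-/- cells from -0.11 to 0.15 for Cbx6.

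Replicate numbers did not pair the libraries: correlations of deviations ran from -0.46 to 0.38 over 21 pairs of groups, and 2 of 14 libraries correlated best with their own number. With the number as a replicate block, 10 of 10 counts of called members were equal 2 gene or list results ended on the other side of a threshold or moved, and 122 did not.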
